A study of Mus musculus with 12 samples.

Results

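Transcripts in the livers of vehicle-treated mice were read at 3 harvest times, 6 h, 12 h and 24 h, as 1 channel of 12 spotted arrays hybridised in 2 colours (4 arrays per time), and that channel is described on its own. Each array set a vehicle liver in one dye against the liver of a mouse given bulaquine, an antimalarial related to primaquine, in the other. Vehicle was labelled with Cy3 on arrays F1 and F2 of a time and with Cy5 on R1 and R2, so the members are 12 of the 24 channels, 2 per dye at each time. They were chosen by the dye label alone. A healthy liver is mostly hepatocytes, which secrete albumin, apolipoproteins and other plasma proteins, make fatty acids and cholesterol after meals, and release glucose in the fast. Many of its transcripts follow the time of day and the last meal, through the circadian clock and through insulin, glucagon and sterol-sensing factors.

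All mice had free access to food and water, per the labels, and livers were snap frozen before total RNA was extracted. The labels used here name no strain, sex, age, dose or time of day. The time of a vehicle liver is that of its array: its own label says only that vehicle was given. No source used here says whether each time had its own vehicle animals, whether arrays F1 and R1 share RNA or whether RNA was pooled. A p-value here weighs a difference against array-to-array spread, possibly technical, and time cannot be told apart from any hybridisation batch that followed it.

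Signal over background stands in for depth on an array. Between 4.08% and 8.82% of the 23040 spots stood at 0 in the Cy3 vehicle channels and between 5.92% and 12.0% in the Cy5 channels, and the median signal-to-noise score of a channel ranged from 0.794 to 1.14 for Cy3 and from 0.708 to 1.34 for Cy5. The 14347 probes above 0 in all 12 vehicle channels were tested, 9659 of them with 1 gene symbol (6689 genes), 161 with several and 4527 with none. Array R2 of 24 h stood apart: its mean Spearman correlation with the other 11 channels was 0.816, against 0.845 to 0.882 for the others, and its array weight was 0.349. Results are given with all 12 channels, and the counts without that array are given beside them. Dye was called for 8682 probes, 8661 of them brighter in Cy5, so every time difference below was taken within dye.

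Gene names rest on moving the 48 print blocks of 480 spots from row-wise to column-wise order of a 12 by 4 grid. In that order the hepatocyte markers were among the brightest spots in every vehicle channel. Albumin (Alb) stood at the 99.96th percentile of brightness on average, transferrin (Trf) at the 99.85th and the 98.5th on its 2 probes, apolipoprotein A-I (Apoa1) at the 99.59th and transthyretin (Ttr) at the 98.89th. The metallothioneins Mt1 and Mt2, which bind zinc and copper, lay at the 98.09th percentile and, on 2 probes, at the 95.69th and 91.38th. The places of Mt1 and Mt2 may have entered the choice of order, so they are not counted as a separate check of it. That check rests on Alb, Apoa1, Ttr and the dimmer Trf probe. In the order as deposited Apoa1 lay at the 15.96th, Ttr at the 59.43rd, Alb at the 83.07th, Mt1 at the 38.89th and Mt2 at the 95.55th and 37.3rd. With the blocks moved the other way, from column-wise to row-wise, Apoa1 lay at the 42.81st, Ttr at the 26.98th and Alb at the 82.02nd. Mt1 lay there at the 32.47th and Mt2 at the 81.98th and 19.53rd. The brighter Trf probe keeps its place in every order tried and does not bear on the choice. The other lay at the 13.75th as deposited and at the 89.67th with the blocks moved the other way.

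Among spots with 1 gene symbol, the brightest of the vehicle liver were a mix of hepatocyte products and genes with no such role. The ranks take 1 probe per gene and leave out the 7720 spots without a symbol and the 206 with several. Ranked by mean percentile over the 12 channels, Alb had rank 3, Apoe, the apolipoprotein of remnant particles, rank 5 and Trf rank 6, at 99.96, 99.89 and 99.85. The phosphatase gene Dusp4 had rank 1 and Gdap1, a mitochondrial outer membrane protein gene, rank 2, both at 99.97. The other 20 of the 25 highest were, in order, Klhl24, Uhrf1bp1l, Ttc12, Lmnb1, Eif4g3, Fibp, Rybp, Il17rd, Rictor, Tmed3, Tyms, Kif13a, Tgoln1, Mtfr1l, Odf2, Pitpnc1, Ybx1, Cdh23, Hat1 and Myh10. The brightness of a spot depends on its DNA as well as on the transcript, so the order is not an order of transcript amounts. Of the 25 genes, 19 had several probes, and in 15 of these the dimmest probe stood under the 50th percentile: Rictor, a subunit of the mTORC2 kinase complex, read 99.78 on its brightest probe and 5.70 on its dimmest. Both Trf probes and both Fibp probes stayed high, with Fibp at 92.4 on its dimmer one.

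Among these 25 the percentile changed little with time, which their choice by mean percentile over the 12 channels favours. Alb read 99.92 at 6 h, 99.96 at 12 h and 99.98 at 24 h, and Apoe 99.90, 99.88 and 99.89. The widest ranges over the 12 channels among the 25 were those of Kif13a, from 97.80 to 99.996, and Eif4g3, from 98.03 to 99.99. Outside the 25, Mt1 read 96.602 at 6 h, 98.658 at 12 h and 99.004 at 24 h. The Mt2 probes read 92.62, 97.143 and 97.3, and 87.768, 92.183 and 94.179. Apoa1 (99.513, 99.717 and 99.53) and Ttr (98.9, 98.793 and 98.98) moved less. Shifts in percentile were not tested. With the Cy3 channels alone 20 of the 25 genes stayed in the list, and with the Cy5 channels alone 22.

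**Figure D1:**
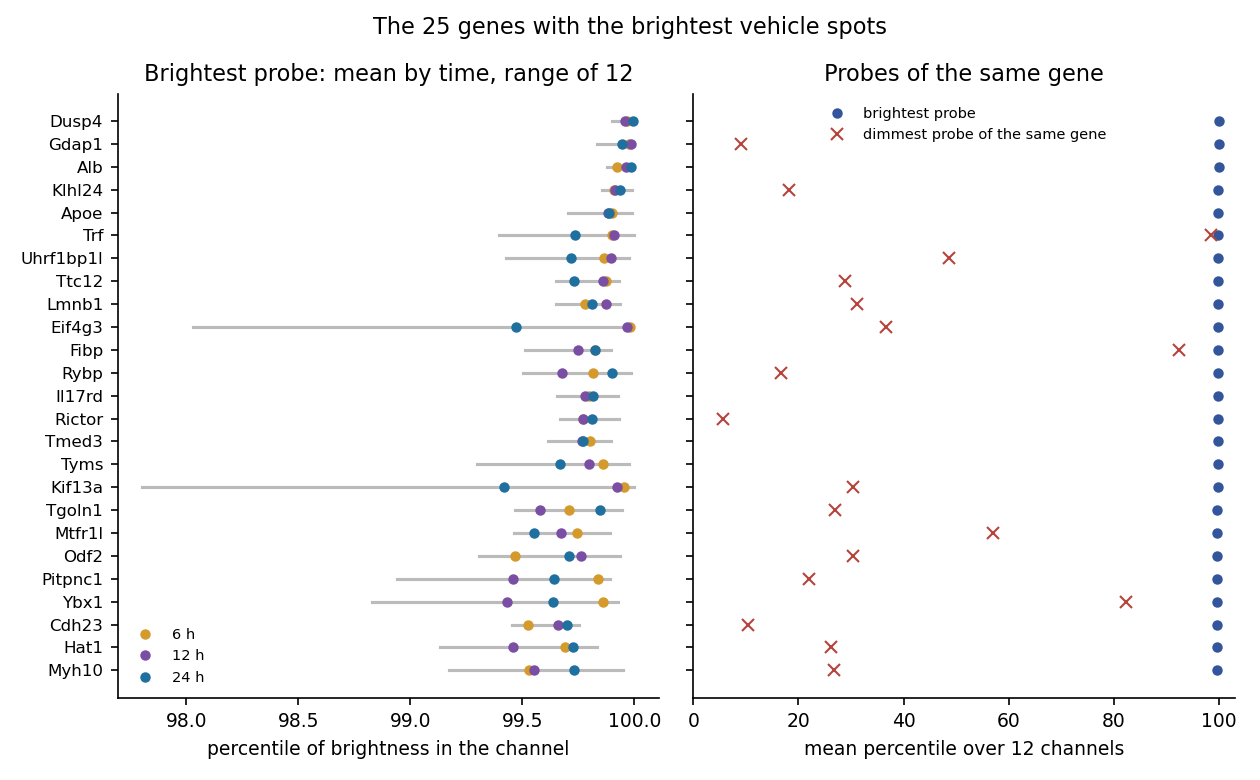
The left panel plots, for each of the 25 genes with the brightest vehicle spots, the mean percentile of its brightest probe at 6 h, 12 h and 24 h (dots) and the range over 12 channels (line). The right panel sets that probe (dots) against the dimmest probe of the same gene (crosses, 19 genes with several probes): 15 crosses lie under the 50th percentile while the dots all lie near 100.

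Between harvest times few probes passed the test. At 12 h against 6 h, 27 of 14347 probes were called, 0 higher and 27 lower (0.188% of those tested), at a Benjamini-Hochberg adjusted p under 0.05 in limma. For 24 h against 12 h, 65 were called (0.453%), 46 higher (0.321%) and 19 lower (0.132%). Between 24 h and 6 h there were 4 calls (0.0279%), 1 higher (0.00697%) and 3 lower (0.0209%). A joint test of the 3 times called 47 (0.328%). Both channels of each dye lay higher than both of the earlier time for 5.44%, 7.91% and 6.72% of all probes in the 3 comparisons, and lower for 6.89%, 5.85% and 6.65%. These comparisons share samples, since the channels of each time enter 2 of them. Each call had the same sign in the Cy3 and in the Cy5 channels. No symbol was given for 7 of the 27 calls at 12 h against 6 h. At 24 h against 12 h it was missing for 15 of the 46 higher and 3 of the 19 lower.

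The counts leaned on single arrays. For 12 h against 6 h, 3 to 5 calls were left without any one of F1, F2 or R1 of 6 h or F2 or R2 of 12 h, 14 and 16 without F2 of 24 h and F1 of 12 h, 18 without F1 or R1 of 24 h, and 30 without the outlying R2 of 24 h. For 24 h against 12 h the count was 23 without F2 of 12 h, 26 without F2 of 24 h, 32 without F1 of 12 h, 37 without F1 or R1 of 24 h, 38 and 39 without R1 and R2 of 12 h, and 55 without R2 of 24 h. For 24 h against 6 h it was 1 without R2 of 24 h, without any one of F1, F2 and R1 of 6 h, or without F1 or F2 of 12 h, and 2 without F1, F2 or R1 of 24 h. When F1 was averaged with R1 and F2 with R2, in case they share RNA, 0 probes were called by limma in any comparison, with 1165, 1473 and 1482 at an unadjusted p under 0.05 in the 3 comparisons in the order above.

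Probes annotated to globin genes, which encode the protein chains of hemoglobin in red cells, were the leading group in the vehicle channel: they were low at 12 h and high at 6 h and 24 h. Of 22 such probes 20 were tested, 14 alpha and 6 beta. The annotation gives 19 of them several symbols, 13 of these with the histone gene H3f3a beside the alpha globins, so no single globin gene is named. The 13 carry the same symbols as each other, and so do the 6 beta probes. Many of these probes may thus read the same few transcripts, and counts of them are not counts of separate genes. The median of their normalized log2 intensities was 13.34, 13.36, 13.81 and 13.90 on arrays F1, F2, R1 and R2 of 6 h. At 12 h it was 10.95, 10.57, 12.19 and 11.31 on the same 4 arrays, and at 24 h 13.43, 13.32, 14.04 and 14.68. Each of the 4 channels of 12 h lay below every channel of the other times. Over probes the median log2 difference was -2.09 at 12 h against 6 h (4.26-fold lower), with 12 of 20 called lower and 18 below 0, where 0.188% of all probes were called lower and the median of all probes was -0.01. It was 2.40 (5.27-fold higher) at 24 h against 12 h, with 14 of 20 called and 18 above 0, against 0.321% called higher over all probes. Between 24 h and 6 h the median was 0.22, with 0 called.

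The medians of the alpha and of the beta probes had the same sign. They were -2.19 and -1.29 at 12 h against 6 h, with 9 of 14 and 3 of 6 called, and at 24 h against 12 h 2.36 and 2.40, with 11 of 14 and 3 of 6 called. Of the 20, 3 dim probes had a mean log2 intensity under 10 and were not called, 2 of them beta and the third Hba-x, the embryonic alpha-like globin gene and the only one with a single symbol. Some bright probes were not called either. An alpha probe with means of 14.67, 14.49 and 15.06 at 6 h, 12 h and 24 h read -0.18 and 0.58 in these comparisons. A beta probe read 0.34 and 2.42, with a value of 3.71 on F2 of 6 h against 13.47 to 14.04 on the other arrays of 6 h. In bulk tissue fewer cells of a type and less RNA per cell cannot be told apart. Of the other 2 erythrocyte markers tested, Alas2, the heme synthesis enzyme of red cell precursors, differed by -0.54 at 12 h against 6 h and 0.70 at 24 h against 12 h, and Car2, a carbonic anhydrase, by -0.01 and -1.36, with no call. The labels do not say whether livers were perfused, and the part of blood in the tissue was not tested.

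The bulaquine channel of the same spots did not show the dip to the same depth. Its globin medians were 13.99, 13.78, 12.91 and 13.39 at 6 h, then 13.80, 12.93, 13.01 and 12.03 at 12 h, and 14.16, 14.35, 13.84 and 14.53 at 24 h, so that 6 h and 12 h overlapped. Its median difference was -0.30 at 12 h against 6 h with 0 called, and 1.16 at 24 h against 12 h with 1 called. Tested directly as bulaquine minus vehicle, the 12 h against 6 h change differed by a median of 1.86, with 13 of 19 probes called where 0.4% of 11749 probes were. The median was -1.39 at 24 h against 12 h, with 5 of 19 called (0.179% of all probes), and 0.46 at 24 h against 6 h, with 0 called (0.187% of all probes). The vehicle values that singled out these probes also enter these differences. The counts are therefore favoured by the choice of probes and are no separate support. In the vehicle channel the median probe was 4.26-fold lower at 12 h than at 6 h. Why the 2 channels differed was not tested.

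**Figure D2:**
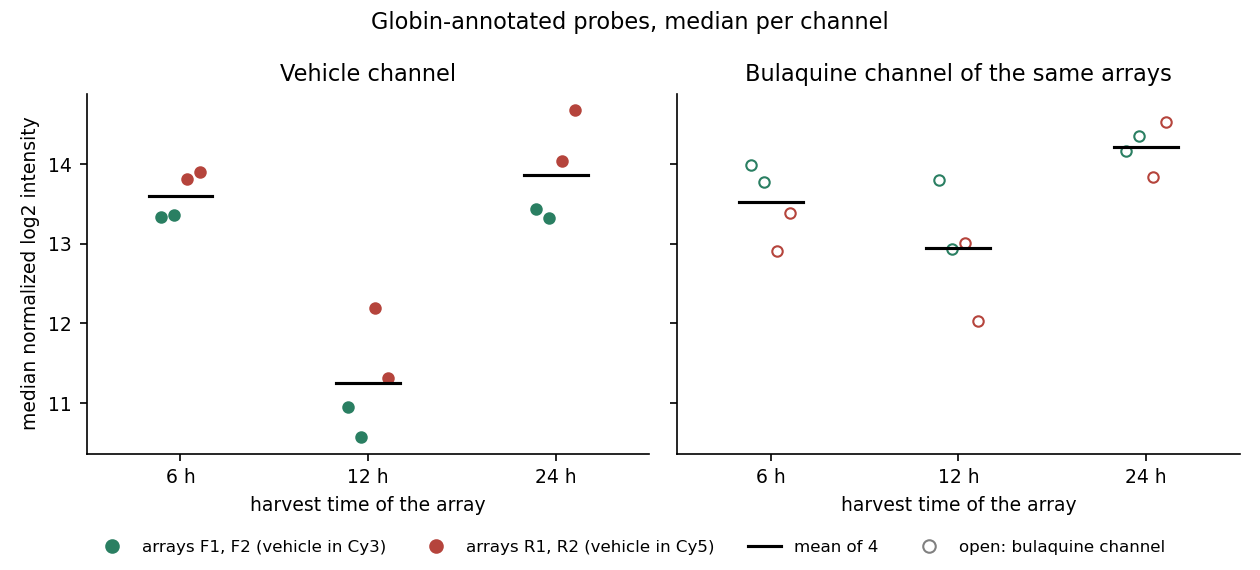
Each point is the median normalized log2 intensity of the globin-annotated probes (20 in vehicle, 19 in bulaquine) in one channel, by the harvest time of the array, with vehicle on the left and bulaquine on the right and bars for the mean of 4. The vehicle channels of 12 h, between 10.57 and 12.19, lie below all those of 6 h and 24 h, and the bulaquine channels of 12 h, between 12.03 and 13.80, overlap with those of 6 h.

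The comparisons of 12 h against 6 h and of 24 h against 12 h share the 12 h channels. A low 12 h value therefore favours a call in both. The 8 probes with 1 symbol called lower at 12 h against 6 h were all called higher at 24 h against 12 h. They belong to Cetn2, a calcium-binding centriole protein gene, Tia1, an RNA-binding protein gene of stress granules, Rhbdd3, Larp7, whose product binds the 7SK RNA, Add3, a subunit of the membrane skeleton protein adducin, Fam131a, Nup205 of the nuclear pore and Got2, the mitochondrial aspartate aminotransferase. Cetn2 read 13.48, 13.89, 15.57 and 14.75 on F1, F2, R1 and R2 of 6 h, 11.62, 11.30, 12.80 and 12.72 at 12 h, and 13.53, 14.08, 14.88 and 14.58 at 24 h. Within each dye, the 12 h values lay below all others. The log2 difference was -2.31 ± 0.27 (SE, n = 4 per time, adjusted p = 0.0109) at 12 h against 6 h and 2.16 ± 0.27 (adjusted p = 0.00566) at 24 h against 12 h. Got2 read 13.40, 13.23, 13.60 and 13.38 at 6 h, 11.30, 11.68, 11.92 and 12.01 at 12 h, and 13.52, 13.74, 14.19 and 14.81 at 24 h. Its 12 h values were the lowest 4 of the 12 with no overlap, and it fell by 1.68 on the log2 scale (adjusted p = 0.0237) and rose by 2.34 (adjusted p = 0.00229).

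The other 6 fell by 1.71 (Nup205) to 2.31 (Tia1) at 12 h and rose by 1.91 (Fam131a) to 2.44 (Rhbdd3) at 24 h. Pdcd7, a protein gene of the minor spliceosome, Lrrc41 and Tfdp2, the partner of E2F factors, were called at 24 h against 12 h alone. Their rises were 2.41, 2.30 and 2.25, with values of -1.44, -1.72 and -1.30 at 12 h against 6 h. Of the 17 genes called higher at 24 h against 12 h, only the 12 with the widest differences are named in this report. The other tested probes of Tia1 and Add3 did not follow: they read 0.16 and -0.32 at 12 h against 6 h, and -0.14 each at 24 h against 12 h. The bulaquine channel of these spots read -0.66 (Add3) to -0.14 (Nup205) at 12 h against 6 h for the 8 genes, with no call. The part of globin sequence in these spots was not tested here. The rises of Got2, Lrrc41, Add3, Cetn2, Nup205 and Rhbdd3 kept their call whichever of the 12 arrays was left out, and those of Tia1 and Larp7 held in 8 of the 12 fits, Fam131a in 6, Tfdp2 in 4 and Pdcd7 in 3. The drop at 12 h held in 9 of 12 for Cetn2, 8 for Add3, 7 for Rhbdd3, 6 for Larp7, 5 for Tia1, 4 for Got2, 2 for Nup205 and 1 for Fam131a.

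Fasn, on all 3 of its probes, and Elovl6, on 1 of 6, fell at 24 h against 12 h. Fasn encodes fatty acid synthase, which builds palmitate in the cytosol, and Elovl6 the elongase that lengthens palmitate to stearate. Both are well-known targets of the insulin- and sterol-regulated factor SREBP-1c in the fed liver. On the probe with the smallest p Fasn read 12.49, 12.95, 13.14 and 13.06 on F1, F2, R1 and R2 of 6 h, 13.60, 13.06, 14.23 and 13.79 at 12 h, and 10.99, 11.03, 12.46 and 11.74 at 24 h. All 4 values of 24 h were below all 8 others. The difference at 24 h against 12 h was -2.12 ± 0.27 (SE, n = 4 per time, 4.33-fold lower, adjusted p = 0.00652), and it stayed called in 12 of 12 fits with 1 array left out. The other 2 Fasn probes were called too, at -3.14 ± 0.47 (8.82-fold lower, adjusted p = 0.0147) and -1.58 ± 0.26 (2.99-fold lower, adjusted p = 0.0261). Against 6 h the 3 probes read -1.36, -2.83 and -1.04 without passing (adjusted p = 0.168, 0.11 and 0.252). In the bulaquine channel at 24 h against 12 h, limma called the probe that read -3.14 in vehicle (-2.95, adjusted p = 0.0327). The probe with the smallest p in vehicle read -1.24 there, without a call (adjusted p = 0.184).

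Elovl6 was less even over its 6 probes. The one with the smallest p at 24 h against 12 h read 10.96, 9.85, 10.57 and 10.77 at 6 h, 10.51, 10.40, 11.34 and 10.62 at 12 h, and 8.46, 8.48, 9.33 and 9.02 at 24 h, with no overlap between 24 h and the other times. It fell by 1.89 at 24 h against 12 h (SE 0.28, 3.72-fold, adjusted p = 0.0152), and the call held in 7 of the 12 fits that leave out an array. Another probe passed against 6 h, at -2.21 ± 0.27 (4.63-fold lower, adjusted p = 0.0283), but held in 1 of 12 fits with 1 array left out. That probe was also called by limma in the bulaquine channel against 6 h (-2.84, adjusted p = 0.0379). The first read -0.98 in that channel at 24 h against 12 h, without a call (adjusted p = 0.346). Of the 6 probes 5 lay below 0 in both comparisons, and the brightest, which stands for Elovl6 in the lists, lay above, at 0.23 and 0.31.

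Promoter sequence is shown for 4 genes with called probes, Fasn and Elovl6 here and Tubb4b and Cpa1 below, because each has a called probe described in the text; they were chosen with these results known. Each run is the 250 bases before the RefSeq start of the gene on build GRCm38.p6, read on the gene's own strand. Capitals mark the letters of 4 motifs searched on both strands: CACGTG (the E-box of clock and of other basic helix-loop-helix factors), TTATGNAA (the D-box of the PAR bZIP factors), AGGTCA (the core of nuclear receptor elements) and CCAAT (the box bound by NF-Y). The last was added with these results known. Among 32851 promoter stretches of this length they were found in 6.02%, 3.07%, 14.02% and 33.85%. Fasn lies at chr11:120824548-120824797 on the minus strand and Elovl6 at chr3:129532136-129532385 on the plus strand.
Fasn: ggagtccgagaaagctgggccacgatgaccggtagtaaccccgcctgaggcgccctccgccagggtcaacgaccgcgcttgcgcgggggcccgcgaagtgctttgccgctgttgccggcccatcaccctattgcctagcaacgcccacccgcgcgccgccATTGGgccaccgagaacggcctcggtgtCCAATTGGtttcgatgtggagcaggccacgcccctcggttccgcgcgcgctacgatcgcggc
Elovl6: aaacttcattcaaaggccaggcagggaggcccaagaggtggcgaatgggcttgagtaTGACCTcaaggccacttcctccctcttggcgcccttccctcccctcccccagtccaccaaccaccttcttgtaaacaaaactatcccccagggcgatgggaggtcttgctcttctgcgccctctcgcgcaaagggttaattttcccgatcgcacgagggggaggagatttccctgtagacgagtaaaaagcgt
The Fasn stretch holds 3 CCAAT matches, 2 of which overlap on opposite strands, and the Elovl6 stretch 1 AGGTCA match. Of the 24 named genes with a call 20 had a promoter in the table, and 9 of these held CCAAT, 4 AGGTCA, 1 CACGTG and 0 TTATGNAA. A match is a run of letters in this window and shows no binding.

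Angptl8, a feeding-induced secreted regulator of lipoprotein lipase, had the widest drop among named genes at 24 h against 12 h. It read 11.99, 10.71, 11.75 and 10.51 on F1, F2, R1 and R2 of 6 h, 12.41, 13.09, 14.13 and 14.09 at 12 h, and 9.84, 9.63, 11.84 and 9.27 at 24 h. All 4 values of 12 h were above all others, while 6 h and 24 h overlapped. The drop was 3.29 on the log2 scale (SE 0.57, 9.76-fold, adjusted p = 0.0357), and it held in 3 of 12 fits with 1 array left out. The difference of 12 h against 6 h was 2.19 ± 0.57 and did not pass (adjusted p = 0.287). Acsl5, which activates long-chain fatty acids, fell by 2.19 (SE 0.36, 4.57-fold, adjusted p = 0.0261, held in 6 of the 12 fits) on one probe and read -0.12 on its other. The bulaquine channels read -3.24 for Angptl8 and -1.34 for Acsl5 in the same comparison.

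The list of sterol and fatty acid synthesis genes, 1 probe per gene, had 18 tested members. Of these, 16 lay below 0 at 24 h against 6 h, with a median of -0.87 where all probes had -0.03. In 9 of the 18, both channels of each dye lay lower at 24 h than at 6 h, which held for 6.65% of all probes, and 10 had an unadjusted p under 0.05, but 0 were called (0.0209% of all probes were called lower). Against 12 h, 14 lay below 0 at 24 h with a median of -0.48 and 1 call, Fasn (0.132% of all probes were called lower), and at 12 h against 6 h 11 lay below 0 with a median of -0.25 and 0 calls. The median of the list fell in a channel between 11.67 and 12.54 at 6 h, 11.13 and 12.35 at 12 h and 10.54 and 12.01 at 24 h.

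Within the list the timing differed by gene. Scd1, the desaturase that makes oleate, was bright and read 17.87, 16.92, 18.49 and 18.75 at 6 h, 15.70, 16.06, 17.53 and 16.47 at 12 h, and 13.82, 15.06, 15.93 and 16.90 at 24 h. Within Cy3 the 3 times did not overlap and stood in falling order, and within Cy5 the 6 h values were the highest. The difference at 24 h against 6 h was -2.58 ± 0.40 (5.98-fold lower) and did not pass (adjusted p = 0.0914). Hmgcs1, the cytosolic synthase at the head of cholesterol synthesis, read 12.20, 11.83, 12.38 and 12.29 at 6 h, 10.11, 9.93, 11.63 and 10.70 at 12 h and 10.31, 10.55, 10.58 and 10.57 at 24 h. Its 6 h values were the highest in each dye, and the differences against 6 h were -1.58 (adjusted p = 0.082) at 12 h and -1.67 (adjusted p = 0.125) at 24 h. Insig1, which holds SREBP in the endoplasmic reticulum, read -1.14 and -1.02 in the same comparisons, and Srebf1 and Srebf2, which encode the SREBP factors, 0.18 and 0.07 at 12 h and -0.27 and -0.37 at 24 h, all without a call. In the bulaquine channel Scd1 read -2.25, Hmgcs1 -1.18 and Fasn -2.64 at 24 h against 6 h. There Scd1 and this Fasn probe were called by limma (adjusted p = 0.0257 and 0.0252). The Fasn probe with the smallest p in vehicle read -0.82 and was not called (adjusted p = 0.373).

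Probes of 3 genes of tubulins, the subunits of microtubules, fell at 24 h against 12 h: Tubb2b, Tubb4b and Tuba1b. Tubb2b read 11.19, 11.68, 12.28 and 11.47 on F1, F2, R1 and R2 of 6 h, 11.03, 11.43, 12.31 and 11.95 at 12 h and 8.83, 9.11, 9.81 and 9.90 at 24 h. The 24 h values were the lowest 4 with no overlap. The drop was 2.27 (SE 0.26, 4.83-fold, adjusted p = 0.00328) against 12 h, a call kept whichever array was left out, and 2.25 (SE 0.26, 4.75-fold, adjusted p = 0.0256) against 6 h, called in 3 of the 12 such fits. Of 3 Tubb4b probes 2 were called against 12 h, at -1.98 ± 0.33 (3.94-fold lower, adjusted p = 0.0274, held in 2 of the 12 fits) and -2.41 ± 0.42 (5.31-fold lower, adjusted p = 0.0357), and the third read -2.12 (adjusted p = 0.0733). Of 2 Tuba1b probes 1 was called at -2.16 ± 0.40 (4.48-fold lower, adjusted p = 0.0495, held in 1 of the 12 fits) and the other read -0.68. The other tubulin genes on the list did not pass, with Tuba4a at -1.21 (adjusted p = 0.155) and Tubb5 at -0.21 (adjusted p = 0.784). Tubulin genes are close copies of each other, so the spots may read more than one of them.

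**Figure D3:**
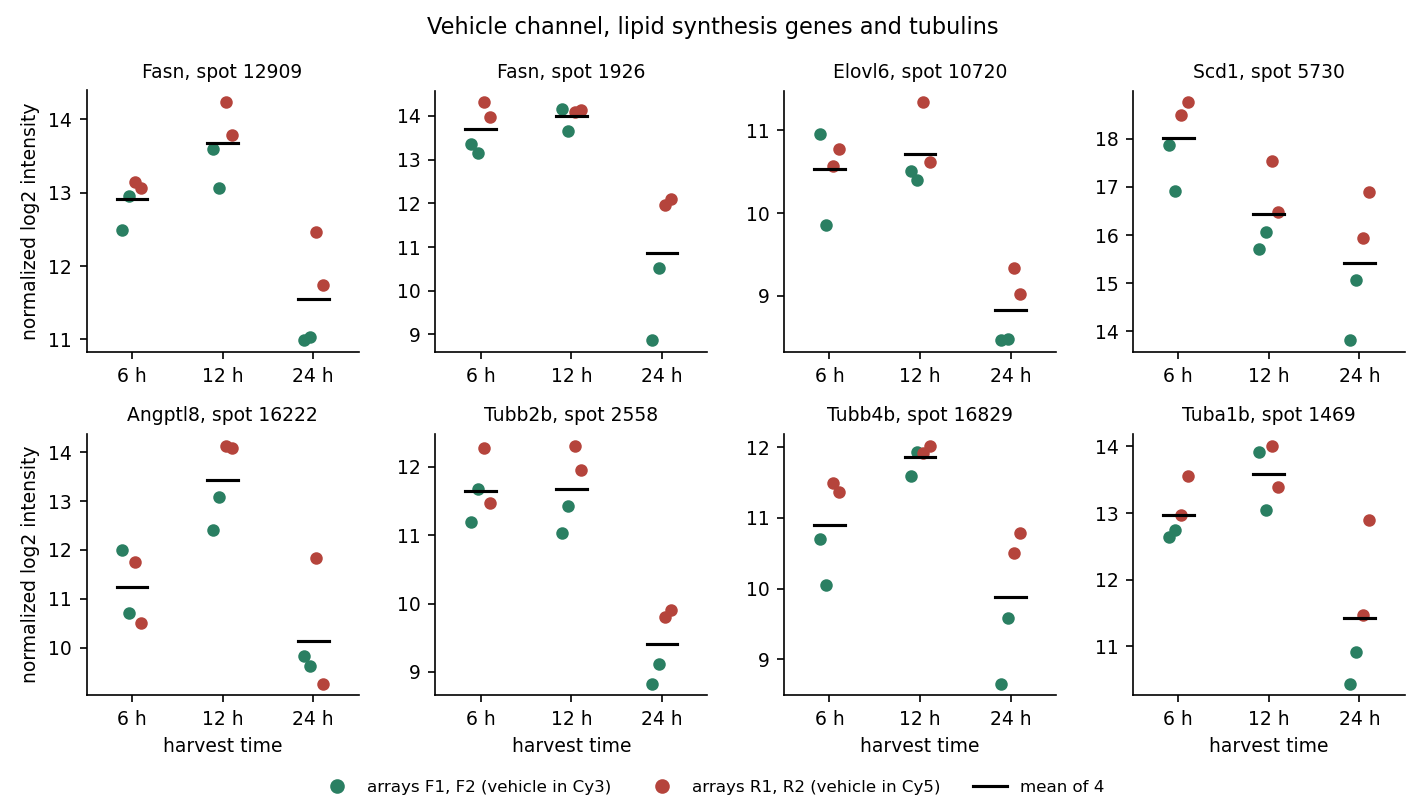
Normalized log2 intensity in each of the 12 vehicle channels by harvest time for 8 probes of lipid synthesis genes, Angptl8 and tubulins, with bars for the mean of 4. The 24 h points of Fasn, Elovl6 and Tubb2b lie below all others, those of Angptl8 lie below 12 h but overlap with 6 h, and Scd1, which was not called, is highest at 6 h in each dye.

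The cytoskeleton list as a whole had 13 of 15 members below 0 at 24 h against 12 h, with a median of -0.44 and 1 call, Tubb2b, where 50.41% of all probes lay below 0 and 0.132% were called lower. That median ran from -0.71 with 1 array left out to -0.07 in the other fits. Of the 15, 12 lay above 0 at 12 h against 6 h, with a median of 0.41 and 0 calls. Actb, the gene of beta-actin, read -0.06 on its brightest probe at 24 h against 12 h and -2.07 to -0.31 on its other 7, and Vim, the gene of vimentin, 0.35 and 0.73 on 2 probes, all without a call. In the bulaquine channel at 24 h against 12 h, Tubb2b read -2.01, called by limma (adjusted p = 0.0357), and Tubb4b -1.84, not called (adjusted p = 0.155). The Tubb4b promoter stretch, at chr2:25224703-25224952 on the minus strand of GRCm38.p6, holds 5 CCAAT matches, marked in capitals.
Tubb4b: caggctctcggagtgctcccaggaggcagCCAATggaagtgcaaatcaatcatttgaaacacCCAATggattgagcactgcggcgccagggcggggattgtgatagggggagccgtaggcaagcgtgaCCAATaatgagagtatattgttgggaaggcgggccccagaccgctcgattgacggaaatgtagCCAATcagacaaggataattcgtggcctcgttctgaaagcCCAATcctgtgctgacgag

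The other 5 named genes called lower at 24 h against 12 h were Gm1968, Gramd3, Tram1, Cyp2c23 and Hsd3b1. Tram1, a translocation factor of the endoplasmic reticulum, read 8.93, 8.56, 9.83 and 10.98 at 6 h, 9.40, 9.12, 10.78 and 10.32 at 12 h and 6.83, 7.10, 8.72 and 8.98 at 24 h, with the 24 h values lowest in each dye. It fell by 1.996 (SE 0.29, 3.99-fold, adjusted p = 0.0143), and its other 3 probes read -2.33, -1.22 and -0.68 without a call. Cyp2c23, a cytochrome P450 gene, fell by 1.77 (SE 0.28, 3.42-fold, adjusted p = 0.0244), and Hsd3b1, a steroid dehydrogenase gene, by 1.40 (SE 0.25, 2.63-fold, adjusted p = 0.0462). Their bulaquine channels read -0.24 and -0.29. Gm1968 and Gramd3 fell by 2.55 and 2.42 on one probe each, with -0.34 and -0.28 on the other. Left-out arrays ended these calls often: they held in 6 of 12 fits for Tram1, 5 for Cyp2c23, 5 for Gm1968, 3 for Gramd3 and 1 for Hsd3b1.

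The widest rise of a named gene was that of Cpa1, the digestive carboxypeptidase A1 of the exocrine pancreas, in the vehicle livers of 24 h. Its spot read corrected intensities of 157, 276, 364 and 608 units on F1, F2, R1 and R2 of 6 h, 133, 153, 245 and 545 at 12 h, and 2797, 2119, 3551 and 7363 at 24 h. Each of the 4 channels of 24 h was above every earlier one, and the signal-to-noise score there was 3.15 to 8.45 against 0.21 to 0.90 before. The earlier values lay near background, so the size of the rise is not well set. On the normalized scale it was 3.92 ± 0.43 against 12 h (adjusted p = 0.00263, a call kept whichever array was left out) and 3.43 ± 0.43 against 6 h (adjusted p = 0.0283, called in 3 of the 12 such fits). The bulaquine channel of the same arrays read 649, 565, 387 and 436 at 24 h, and between 0 and 872 at the earlier times, so the rise was in the vehicle channel.

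Cpa1 was the only one of the 13 pancreas markers on the array with a single symbol, so whether other pancreatic transcripts moved with it was not tested. The spot rests on 1 probe. Its promoter stretch, at chr6:30638968-30639217 on the plus strand of GRCm38.p6, held 2 CCAAT matches.
Cpa1: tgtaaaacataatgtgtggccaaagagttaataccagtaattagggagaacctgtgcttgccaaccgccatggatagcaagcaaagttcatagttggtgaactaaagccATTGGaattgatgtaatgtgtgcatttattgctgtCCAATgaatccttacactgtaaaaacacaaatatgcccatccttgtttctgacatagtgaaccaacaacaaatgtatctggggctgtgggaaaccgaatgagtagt

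**Figure D4:**
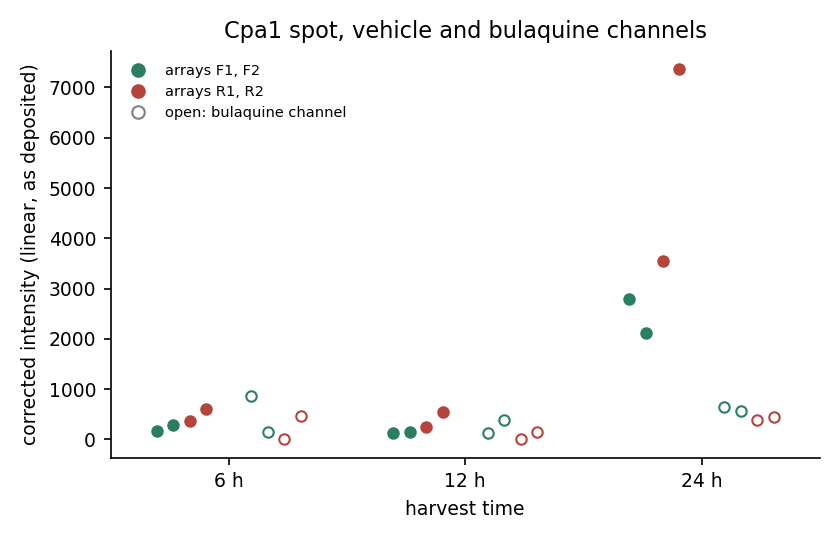
Corrected intensity of the Cpa1 spot on a linear scale as deposited, by harvest time, with filled points for the 12 vehicle channels and open points for the 12 bulaquine channels of the same arrays. The vehicle points of 24 h, between 2119 and 7363, stand above all other points, which reach 872.

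Genes of the circadian clock and its outputs showed no call. The clock is a loop in which Clock and Bmal1 switch on Per and Cry genes that in turn hold them back, and in the liver it drives the PAR bZIP factors Dbp, Tef and Hlf. Of 24 genes listed 14 were on the array and 11 were tested. Above 0 lay 9 of 11 at 12 h against 6 h (median 0.58), 3 at 24 h against 12 h (median -0.31) and 8 at 24 h against 6 h (median 0.35), where the medians of all probes were -0.01, -0.01 and -0.03. Tef read 8.90, 8.28, 9.60 and 8.47 at 6 h, 9.93, 10.54, 10.44 and 10.88 at 12 h, and 9.70, 9.31, 10.26 and 8.42 at 24 h. Its 12 h values were the highest in each dye, and the difference of 1.64 ± 0.42 against 6 h did not pass (adjusted p = 0.268). Per3 read 8.82, 9.84, 10.26 and 10.64 at 6 h and 10.50, 11.21, 11.21 and 11.30 at 24 h, higher at 24 h in each dye, by 1.17 ± 0.31 (adjusted p = 0.277), and its other probe read 0.15.

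None of the remaining clock genes passed. At 12 h against 6 h Clock read 0.73 ± 0.40 (-0.90 on its other probe), Nr1d2, a nuclear receptor that represses Bmal1, 0.97 ± 0.54, Rora, the opposing activator, 1.51 ± 0.83, Cry2 1.01 ± 0.74, Cry1 -0.37 ± 0.84, Ciart, a repressor of the Clock and Bmal1 pair, 0.49 ± 0.22, Noct, a clock-driven phosphatase, 0.55 ± 0.28 (-0.19 and -0.55 on its others), Usp2, a clock-driven deubiquitinase, 0.58 ± 0.72 and Csnk1e, a kinase of the Per proteins, -0.46 ± 0.70 (0.68 on its other). At this number of arrays even differences of several standard errors did not pass, such as that of Tef at 1.64 ± 0.42. A missing call therefore does not show that a clock gene stayed level.

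Feeding and fasting genes were thinly covered, with 3 of 22 tested. Pck1, the rate-limiting enzyme of gluconeogenesis and a fasting gene, read 13.61, 13.74, 14.47 and 13.30 at 6 h, 13.51, 13.25, 13.26 and 13.44 at 12 h, and 14.47, 14.57, 15.10 and 14.68 at 24 h. The 24 h values were the highest within each dye. The difference of 1.34 ± 0.27 (2.53-fold) against 12 h did not pass (adjusted p = 0.077), and the bulaquine channel read 0.89. Cpt1a, the gate of fatty acids into mitochondria, read 0.58 and Lpin1, a phosphatidate phosphatase, -1.002, also uncalled. Tdo2, the tryptophan dioxygenase induced by glucocorticoids, read 1.56 ± 0.31 (adjusted p = 0.0665) in the same comparison.

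**Figure D5:**
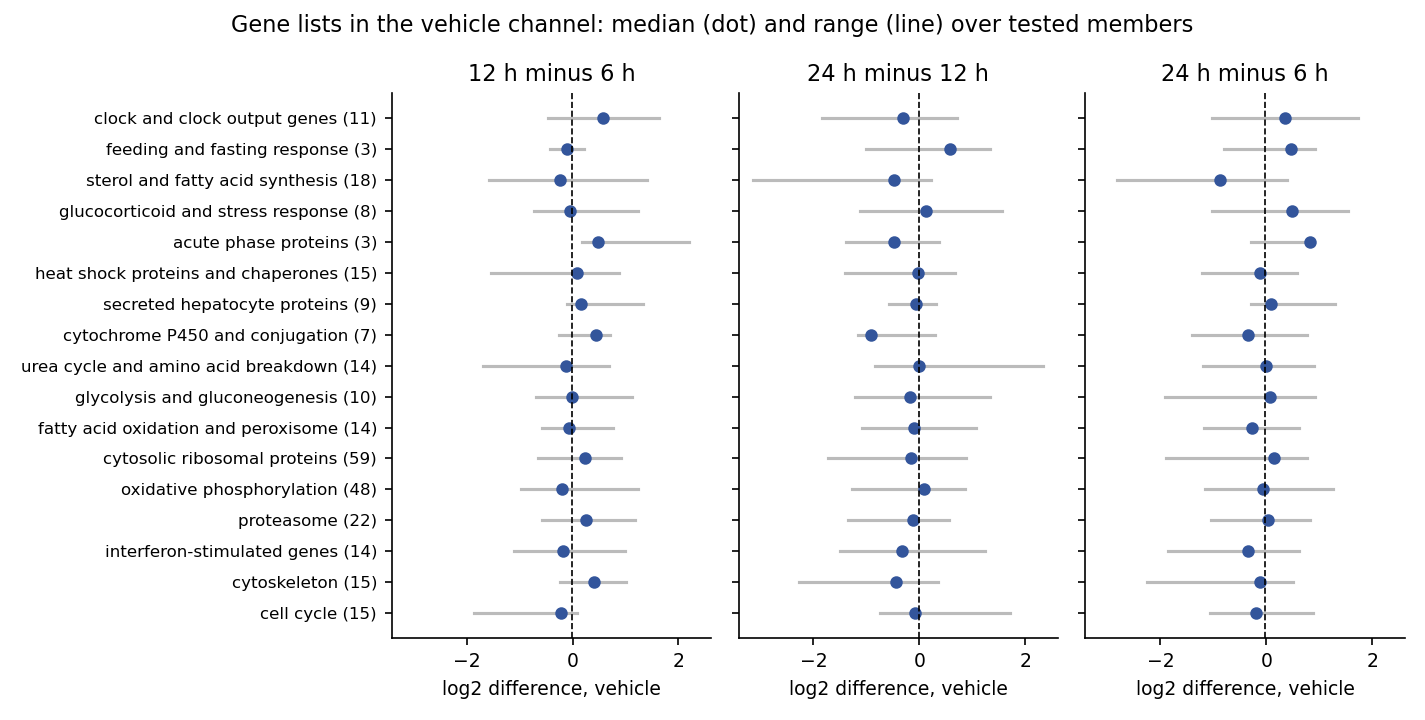
Median (dot) and range (line) of the log2 difference over the tested members of 17 pathway lists in the vehicle channel, in 3 panels for 12 h minus 6 h, 24 h minus 12 h and 24 h minus 6 h, with the number of members in brackets and a dashed line at the median of all tested probes. The sterol and fatty acid list sits at -0.87 at 24 h minus 6 h, and the large lists of ribosomal and respiratory genes stay within 0.24 of 0.

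Of 18 pathway lists, 3 had a called member in any comparison: the sterol list through Fasn, the cytoskeleton list through Tubb2b and the list of urea cycle and amino acid breakdown through Got2. The 59 cytosolic ribosomal protein genes had medians of 0.24, -0.16 and 0.14 and the 48 oxidative phosphorylation genes -0.20, 0.09 and -0.06 at 12 h against 6 h, 24 h against 12 h and 24 h against 6 h. The 22 proteasome genes read 0.26, -0.13 and 0.03, the 14 interferon-stimulated genes -0.17, -0.32 and -0.35, and the 7 genes of cytochrome P450 and conjugation enzymes 0.45, -0.92 and -0.34. Of secreted hepatocyte proteins 9 of 40 were tested, with medians of 0.17, -0.07 and 0.08. Agt, the precursor of angiotensin, read 1.32 and Apob, the core protein of very low density lipoprotein, 1.06 at 12 h against 6 h, without a call. Lcn2, an acute phase protein gene, read 2.20 ± 0.51 at 12 h against 6 h (adjusted p = 0.201).

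Apart from the globin probes and Cpa1, markers of other cells showed no call. The 4 hepatocyte markers had medians of 0.24, -0.10 and 0.08. Of 14 macrophage and Kupffer cell markers 3 were tested, with Lyz2, Csf1r and Mpeg1 at -0.92, -0.83 and -0.48 at 24 h against 12 h. Of 11 endothelial markers 5 were tested, with a median of 0.38 at 12 h against 6 h: Eng, a TGF-beta co-receptor gene, read 1.48 ± 0.29 (adjusted p = 0.105), Kdr, a VEGF receptor gene, 0.45, Pecam1 0.38, Cdh5 0.16 and Stab1 -0.21. Of 8 neutrophil markers 3 were tested, with medians of -0.83, 0.41 and 0.47. S100a9, a calcium-binding alarmin gene, read -0.89 at 12 h against 6 h and 1.38 at 24 h against 12 h, Mpo, the myeloperoxidase gene, -0.83 and 0.16, and Ltf, the lactoferrin gene, 0.06 and 0.41. The 7 stellate cell markers tested had medians of 0.07, 0.06 and -0.35, and of 6 bile duct markers 0 were tested.

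Over the longest interval, 24 h against 6 h, 3 genes and 1 unnamed spot passed: Cpa1, Tubb2b and Elovl6, described above, and a spot without a symbol, which was lower. Next in p among higher probes were Cyth1 (1.86 ± 0.31, adjusted p = 0.11), Pigq, Ssr1, Itsn1 and Dnttip1, at 1.71, 2.12, 1.52 and 1.20. Among lower probes Hat1, Zfp53, Scd1, Flrt2 and Fasn came next, at -3.74, -2.37, -2.58, -1.37 and -2.83, none of them called. The brightest Hat1 probe read 0.06. At 12 h against 6 h no probe was called higher, and the smallest p belonged to Eif5b (1.47 ± 0.25, adjusted p = 0.0568), Smoc1 (1.84), Sall3 (1.10), Slc29a1 (1.39) and P4hb (1.65). Over all probes 1365 had an unadjusted p under 0.05 at 12 h against 6 h, 1905 at 24 h against 12 h and 1842 at 24 h against 6 h.

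Likeness between channels followed dye and time by small steps. The Spearman correlation across tested probes was 0.884 ± 0.029 (SD, 6 pairs) between channels of the same dye and time, 0.860 ± 0.029 (24 pairs) for the same dye and another time, 0.864 ± 0.026 (12 pairs) for the other dye at the same time and 0.851 ± 0.027 (24 pairs) for another dye and time. These means lie within about 1 SD of each other. Fitted on the Cy3 channels alone, 1 probe was called at 12 h against 6 h, 1 at 24 h against 12 h and 0 at 24 h against 6 h, and on the Cy5 channels alone 0 in each, with 689, 1016 and 1315 at an unadjusted p under 0.05. The interaction of time and dye called 2 of 14347 probes, with 958 at an unadjusted p under 0.05. In the bulaquine channels 2, 4 and 19 of 13461 probes were called in the 3 comparisons (0.0149%, 0.0297% and 0.141%).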

How the data were processed

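Livers of vehicle- and bulaquine-treated mice were compared on 12 arrays. The deposited scanner files hold intensity per spot and channel (foreground, background and the corrected value used here, foreground minus background) and a signal-to-noise score made by the authors, with no formula stated. Slide scanning used ImageQuant and spot reading ArrayVision, per the series' design text. Vehicle values at 0 were set to missing, taken to log2 and quantile normalized among the 6 channels of each dye. The 14347 probes above 0 in all 12 went into a limma 3.58.1 model (R 4.3.3) on time and dye (8 residual degrees of freedom), with Benjamini-Hochberg adjustment over all tested probes and a threshold of 0.05. The fit was tested on simulated data. Precision is limited by how few arrays there are: a log2 difference had a standard error of 0.39 at the median. Bulaquine minus vehicle was tested on log ratios after loess.

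Names come from the platform annotation after the blocks were reordered. Of 15114 probes with 1 symbol, 14956 matched a RefSeq gene table used for names, and promoters come from RefSeq. Named genes were the 25 brightest, up to 12 called per direction and comparison with the same sign in both dyes, the clock list, up to 3 per other list by joint p, and, where under 5 were called, up to 5 of smallest p as values. A list uses the brightest tested probe of a gene. Members and lists were chosen with earlier results of these data known.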

Additional observations from a re-analysis of the deposited data

Results flagged for a closer look

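Within a time, 3 of 111 groups of 4 channels held a value far from the other 3, where chance gives about 1 in 20. For probes and list medians the dye mean was taken out first. The groups also included the mean Spearman correlation of each channel with the other channels, without that step. None of those was flagged, R2 of 24 h included. Fam131a read -0.09 on R2 of 24 h, against 0.81 to 0.98 on the other arrays. The Fasn probe with the smallest p read -0.62 on R1 of 24 h, against -1.36 to -1.32, and the Elovl6 probe called against 12 h -0.95 on R1 of 24 h, against -1.31 to -1.25.

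The time course of the bulaquine channel differed from that of the vehicle channel by a limma test of the difference for several named genes. At 12 h against 6 h bulaquine minus vehicle was 2.24 for Tia1, 2.09 for Cetn2, 1.73 for Larp7, 1.48 for Add3, 1.68 for Fam131a, 1.42 for Got2, 1.86 for Lrrc41 and 2.5 for Gm1968. At 24 h against 12 h it was -1.56 for Cetn2, and at 24 h against 6 h 2.79 for Gm1968. Among globin-annotated probes 13 of 19 passed at 12 h against 6 h and 5 of 19 at 24 h against 12 h. Tests of this kind were made on 72 values of named genes. These genes were picked by calls in the vehicle channel, and the globin probes were singled out there. The same vehicle values enter each difference, so these tests are favoured by the choice and give no separate support.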

How the results depend on the processing

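The counts depended on background correction, dye and replicate structure. With foreground intensity the calls at 12 h against 6 h, 24 h against 12 h, 24 h against 6 h and in the joint test were 57, 217, 47 and 178, with normexp correction 67, 239, 58 and 212, after dropping the dimmest 30% of probes 58, 103, 9 and 92, and in a separate channel fit of all 24 channels 58, 219, 67 and 206. Without the filter on probes at 0 they were 14, 42, 1 and 32. With the replicate block (F1, F2, R1 and R2) they were 6, 31, 3 and 19, with dye-swap pairs averaged or without the dye column 0 each, in Cy3 alone 1, 1, 0 and 1, and in Cy5 alone 0 each. Median scaling gave 13 and array weights 45 at 12 h against 6 h, and array weights 12 at 24 h against 6 h. Leaving out 1 array gave 3 to 30, 23 to 59, 1 to 4 and 20 to 51. Deviations of arrays with the same number at different times correlated at -0.08 to 0.13, so the numbers were not taken to pair samples across times. Within a time, F1 minus F2 correlated with R1 minus R2 over probes at 0.02, 0.13 and 0.03 at 6 h, 12 h and 24 h, so whether F1 and R1 share RNA was not settled.

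Of the 27 and 65 calls, 26 and 57 were shared with normexp, and 6 and 30 with the replicate block. The direction of each named call and of the globin and sterol list medians was kept in all fits that gave a value. The globin median ran from -2.35 to -1.34 at 12 h against 6 h and from 1.79 to 2.53 at 24 h against 12 h, and the sterol median from -1.39 to -0.59 at 24 h against 6 h. Within Cy3, foreground intensity gave 49, 122 and 1 calls and normexp 47 and 139, with 0 under both filters, and within Cy5 the stricter filter gave 1 at 24 h against 6 h. Time by dye gave 1 with median scaling, cyclic loess, joint quantiles or the stricter filter and 0 with block medians, foreground intensity or normexp. In the bulaquine channel foreground intensity gave 139, 26, 50 and 128 and normexp 93, 20, 29 and 105. The stricter filter gave 26, 12 and, jointly, 43 there, and no filter 1, 1 and, jointly, 12. Cyclic loess gave 4 and 8, and block medians 1 at 24 h against 12 h. Why these settings differ was not tested.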

Other observations

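Few spots were absent at one time alone. At 6 h 0 spots stood at 0 in all 4 vehicle channels and above 0 in the other 8, at 12 h 2 did, 1 of them Gpc6, a glypican gene, and at 24 h 3 did, 1 of them Ptpa, an activator of phosphatase 2A. These genes were named after their values were seen. No test was made, and 0 spots were above 0 in all 4 channels of one time and at 0 in the other 8.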
